A study of Rattus norvegicus with 9 samples.

Results

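Ubd and Ido1, a pair of genes that interferon-γ is known to induce, were followed through cardiac RNA-seq libraries of rats. They were picked by name, because an earlier look at these data had placed both among the largest differences between the Model-headed libraries and those headed Cal. Both are among the 4288 genes listed in the Cal and Model table, and neither is among the 2458 listed in the Model and Con table. Since that difference chose them, their levels in these 6 libraries are given as a description with no test.

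Hearts of male Sprague Dawley rats from 3 groups of the study were sequenced, with 3 rats per group, and its fosinopril group is not analysed here. The Control rats had sham surgery, while in the Model and Cal rats heart failure was induced by tying off the left anterior descending branch of the coronary arteries. The Cal rats then received calycosin (Cal), an isoflavone of Astragalus, by mouth at 80 mg/kg per day for 28 days, and the Control and Model rats received water. The animals' age and the part of the heart that was taken are not given in the sources used here.

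The deposited sample columns hold normalized counts, that is, reads per gene divided by one size factor per library. Of the values, 100% came out as whole reads within a tolerance of 0.01 reads, with between 2860826 and 3998471 reads per library on the genes of the Cal and Model table and between 3270460 and 4659882 on those of the other. Only genes that passed the authors' own test are listed, so these sums are not the depth of the libraries, and a gene that is not listed has no level here. The column headings contradict each other. For 100% of the genes in the Cal and Model table, averaging the 3 sample columns called Model gives the mean column called Cal, and the reverse, and in the other table averaging the sample columns called Cal gives the mean column called Model. The Model and Con table holds sample columns headed Cal and Con and none headed Model. Its name, like its mean column, thus puts the Cal-headed libraries in the place of the model group. Which set of headings is right could not be settled here, and names of libraries follow the sample columns. By the mean columns, the Model-headed libraries would be the Cal group and the Cal-headed ones the model group, and every difference between them would read the other way. The labels say heart, and in the Model and Con table the cardiac myosin heavy chain gene Myh6 reached 335145 ± 1036 (Cal-headed) and 275029 ± 33746 (Con-headed, SD, n = 3 each) in normalized counts. The genes carry mouse Ensembl identifiers and coordinates although the animals are rats. The labels name an alignment to mouse genome builds, while the paper names rat reference sequences. How the reads were counted on these identifiers is not given in the sources used here.

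Interferon-γ binds a receptor that signals through the kinases Jak1 and Jak2. The signal reaches genes through GAS elements and, with interferon regulatory factors such as Irf1, through related ISRE elements. Ubd encodes FAT10, a ubiquitin-like protein that is attached to other proteins and sends them to the proteasome, and interferon-γ and TNF are known to induce it together. Ido1 encodes indoleamine 2,3-dioxygenase 1, which opens the indole ring of tryptophan in the first and rate-limiting step of the kynurenine pathway, and it is known from dendritic cells, macrophages and inflamed endothelium.

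Rat promoters from RefSeq (build GRCr8, from 250 bases before to 50 after the annotated start) are shown for Ubd and for a pair of target genes described below, with matched motifs in capitals. The motifs, searched on both strands, were the GAS element TTCNNNGAA, the ISRE core GAAANNGAAA, the NF-κB consensus and the TATA box TATAAA. The window of Ubd is chr20:1392636-1392935 on the minus strand, that of Gbp2 is chr2:234005477-234005776 and that of Cxcl10 is chr14:15988816-15989115, both on the plus strand, each printed 5′ to 3′ along the gene. Gbp2 is shown as an example of a window with an ISRE core and the letters TATAAA, and Cxcl10 as one that also holds the NF-κB consensus. TATAAA lies at positions -2 to 3 from the annotated start in Gbp2 and -162 to -157 in Cxcl10, so neither is taken as a working TATA box.
Ubd: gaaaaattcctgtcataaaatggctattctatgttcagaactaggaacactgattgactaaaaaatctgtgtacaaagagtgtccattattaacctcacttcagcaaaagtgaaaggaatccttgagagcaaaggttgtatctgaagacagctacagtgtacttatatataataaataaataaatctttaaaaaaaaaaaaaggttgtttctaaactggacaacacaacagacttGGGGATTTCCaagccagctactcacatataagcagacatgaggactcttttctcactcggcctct
Gbp2: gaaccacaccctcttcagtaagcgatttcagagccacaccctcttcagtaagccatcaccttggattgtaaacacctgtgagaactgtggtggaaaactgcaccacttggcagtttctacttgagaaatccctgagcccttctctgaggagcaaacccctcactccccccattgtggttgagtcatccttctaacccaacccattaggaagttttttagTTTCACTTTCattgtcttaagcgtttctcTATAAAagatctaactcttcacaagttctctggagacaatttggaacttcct
Cxcl10: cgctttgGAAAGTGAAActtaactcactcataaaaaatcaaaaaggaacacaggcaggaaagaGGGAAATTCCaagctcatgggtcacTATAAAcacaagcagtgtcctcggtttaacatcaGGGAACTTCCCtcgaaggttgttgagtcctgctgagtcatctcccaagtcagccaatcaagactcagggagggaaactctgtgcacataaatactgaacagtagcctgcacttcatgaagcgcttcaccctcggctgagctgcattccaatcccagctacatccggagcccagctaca
The only match in the Ubd window was 1 NF-κB consensus, from 15 to 6 bases before the start (positions -15 to -6). That consensus was found in 7.51% of 33469 promoters of this length, the GAS element in 8.87%, the ISRE core in 3.92% and TATAAA in 14.2%. Of 39 listed interferon-γ target genes, 26 had a promoter of the same symbol, and 19 of these held an ISRE core, 7 a GAS element, 9 an NF-κB consensus and 5 TATAAA. These matches are descriptions of letters in a window of 300 bases and show no binding.

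Ubd (ENSMUSG00000035186, mouse chromosome 17 from 37193892 to 37196095, plus strand, as deposited with no build named) was high in the Model-headed libraries and near 0 in those headed Cal. Its normalized count was 1222, 887 and 399.7 in the libraries headed Model 1, 2 and 3, from 1132, 727 and 417 reads. In the libraries headed Cal 1, 2 and 3 it was 1.84, 0.939 and 2.56, from 2 reads, 1 read and 3 reads. The groups do not overlap, and the lowest library headed Model was 156-fold above the highest library headed Cal. The means were 836 ± 414 and 1.78 ± 0.814 (SD, n = 3 each), and the difference of the Cal-headed libraries over those headed Model was -8.13 on the log2(normalized count + 1) scale, on which changes of low genes come out too small. Summed over libraries, 2276 reads stood against 6 reads, a ratio of 452 after scaling with an exact 95% interval of 207 to 1232 that covers counting error only.

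Ido1 (ENSMUSG00000031551, mouse chromosome 8 from 24584136 to 24597009, minus strand) had the same pattern. In the libraries headed Model 1, 2 and 3 its normalized count was 455, 1078 and 449.5, from 421, 884 and 469 reads. In those headed Cal 1, 2 and 3 it was 5.53, 1.88 and 3.42, from 6, 2 and 4 reads. Again the groups do not overlap, with a lowest value headed Model that was 81.2-fold above the highest headed Cal. The means were 661 ± 361 and 3.61 ± 1.84 (SD, n = 3 each), a log2 difference of Cal over Model of -7.12. The sums of 1774 and 12 reads gave a ratio of 176, with an exact 95% counting interval of 100.5 to 341. By the mean columns' headings both genes would be high in the Cal group and near 0 in the model group.

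**Figure D1:**
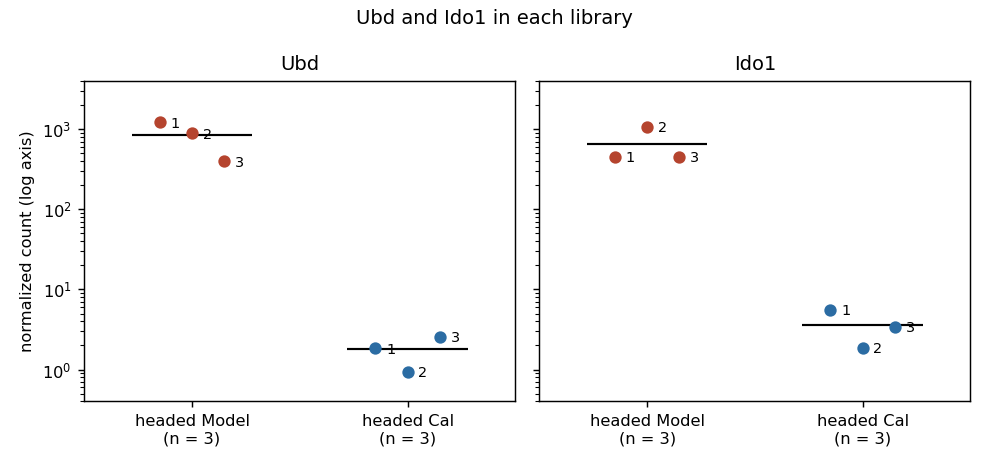
Normalized counts of Ubd (left) and Ido1 (right) on a log axis, with one point per library labelled by its replicate number and a bar at the mean of each group of 3. The libraries headed Model lie between 399.7 and 1222 for both genes, and those headed Cal between 0.939 and 5.53.

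Among the 4288 listed genes, ordered by log2 difference of Cal over Model, Ubd was at place 2 and Ido1 at place 4 from the lowest. Saa3 stood at place 1 with -8.82, Gm4841 at place 3 with -8.02 and Sh2d5 at place 5 with -6.85. The limits of 3 and 6 reads used next are the highest reads of Ubd and Ido1 in any Cal-headed library. Both members therefore pass them by construction. Genes high in the Cal-headed libraries with few reads in the others were not counted. Of 2888 listed genes with a mean of at least 100 in the Model-headed libraries, 2 had no more than 3 reads in any Cal-headed library, namely Ubd and Serpina3m. Another 4 had no more than 6 reads, namely Ido1, AA467197, Sh2d5 and Chil3. These 4 and Serpina3m, like the place in the order, were singled out after their values were seen.

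Per kilobase of the deposited gene length (931 bases for Ubd, 1825 for Ido1), the level of Ubd in the Model-headed libraries was 898 ± 444 and that of Ido1 362 ± 198 (SD, n = 3 each). In the Cal-headed libraries these levels were 1.91 ± 0.874 and 1.98 ± 1.01, which overlap. The ratio of Ubd to Ido1 per kilobase was 5.27 in the library headed Model 1 but 1.61 and 1.74 in those headed Model 2 and 3. In the Cal-headed libraries it was 0.653, 0.980 and 1.47, each from single-digit reads. Of the listed genes, 94.0% had a lower level per kilobase than Ubd in the Model-headed libraries and 6.37% in those headed Cal, and for Ido1 these shares were 85.3% and 6.51%.

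Both genes varied more among the Model-headed libraries than most genes did. The highest library was 3.06-fold above the lowest for Ubd and 2.40-fold for Ido1, with coefficients of variation of 49.5% and 54.7% against a median of 19.1% over the 2888 genes with a mean of at least 100. Of these genes, 3.36% had a wider log2 range than Ubd and 7.89% a wider one than Ido1. Ido1 was highest in the library headed Model 2, as were 33 of the 39 listed interferon-γ target genes described below. That library was the highest of its group for 41.3% of 4005 listed genes with a group mean of at least 10. Ubd was instead highest in the library headed Model 1, as was 1 of the 39 target genes, Wars. In the Cal-headed libraries, 38 of the 39 target genes were highest in Cal 3 (39.9% of 3946 genes were) and Nos2 in Cal 1. Ubd was also highest in Cal 3 and Ido1 in Cal 1, but the 95% Poisson interval of 3 reads runs from 0.619 to 8.77 and that of 6 reads from 2.20 to 13.1, so neither order is beyond counting error.

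Most listed genes that carry the interferon-γ signal were lower in the Cal-headed libraries as well. The test was limma over each whole table, on log2(normalized count + 1), and a gene was called at an adjusted p under 0.05 with a log2 fold change beyond 1. Of 15 genes of the receptor, the kinases, the transcription factors and their inhibitors, 10 are listed in the Cal and Model table, of which 8 were called lower in the Cal-headed libraries and 0 higher. Over all 4288 listed genes 31.6% were called lower and 28.4% higher, 60.1% in all, and every one of them had been listed for differing between these groups. Groups that do not overlap are therefore not particular to the genes named below, and the share of listed genes without overlap was not counted. The median log2 fold change of the 10 was -1.50 beside -0.52 over all listed genes.

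Irf8, an interferon regulatory factor of myeloid cells, had a normalized count of 1425, 1645 and 1364 in the Model-headed libraries and 279, 379 and 486 in those headed Cal. Its groups did not overlap, and its log2 fold change (Cal over Model) was -1.98 (SE 0.21, adjusted p = 0.000335 from limma). Socs1, the feedback inhibitor of the Jak kinases, had 699, 1046 and 1333 against 105, 163 and 348, a log2 fold change of -2.44 (adjusted p = 0.00198 from limma). Jak2, Irf2, Irf9, Ptpn2 and Ptpn6 were also called lower, with log2 fold changes from -1.65 to -1.19, though with median-ratio scaling Ptpn6 (-0.89) and Irf9 (-0.97) were not. The receptor chain gene Ifngr1 (-0.98) and Jak1 (-0.91) were lower by less than the fold limit, and Ifngr1 passed it without the library headed Model 3 (-1.06), Cal 2 (-1.02) or Cal 3 (-1.04). Irf9 (-1.26) was not called without the library headed Cal 2 (-0.91). Ifng itself is not listed, nor are Ifngr2, Irf1, Socs3 and Pias1.

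Of 44 genes taken as interferon-γ targets, 39 are listed beside Ubd and Ido1, with a median log2 fold change of -2.79. Whether their differences are particular to interferon-γ, rather than shared with other interferons, was not tested. In the libraries headed Cal 36 were called lower and 2 higher, beside 31.6% and 28.4% over all listed genes. Cxcl11 and Cxcl9 had the lowest values. Cxcl11, a ligand of the receptor Cxcr3, had 987, 2741 and 1222 in the Model-headed libraries and 6.46, 17.8 and 90.5 in those headed Cal, a log2 fold change of -5.99 (SE 0.85, adjusted p = 0.000882 from limma). Cxcl9, another Cxcr3 ligand, had 27037, 34380 and 15221 against 529, 443 and 2050, a log2 fold change of -4.95 (SE 0.58, adjusted p = 0.000465 from limma). In neither gene did the groups overlap.

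Cd274, which encodes the inhibitory ligand PD-L1, followed with -4.84 (adjusted p = 0.000451 from limma), then Batf2 with -4.70 (adjusted p = 0.000988 from limma). Igtp and Gbp2, members of the interferon-inducible GTPase families, had -4.50 and -4.47 (adjusted p = 0.000260 and 0.000233 from limma). Nlrc5, the transactivator of MHC class I genes, had -3.99 (adjusted p = 0.000930 from limma), the peptide transporter gene Tap1 -3.24 (adjusted p = 0.000593 from limma) and the immunoproteasome subunit gene Psmb8 -2.59 (adjusted p = 0.000639 from limma). Gch1 (-0.97), which makes the cofactor of nitric oxide synthase, was below the fold limit, and passed it without the library headed Model 1 (-1.14) or Cal 3 (-1.11). The MHC class II genes H2-Aa and H2-Eb1 were the 2 called higher in the Cal-headed libraries, at 1.07 and 1.22 (adjusted p = 0.00649 and 0.00530 from limma). Without the library headed Model 2 neither was called, at 0.87 and 0.97, and H2-Aa was not called without Model 1 (0.98) or Cal 3 (0.97) either. The class II transactivator gene Ciita is not listed.

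**Figure D2:**
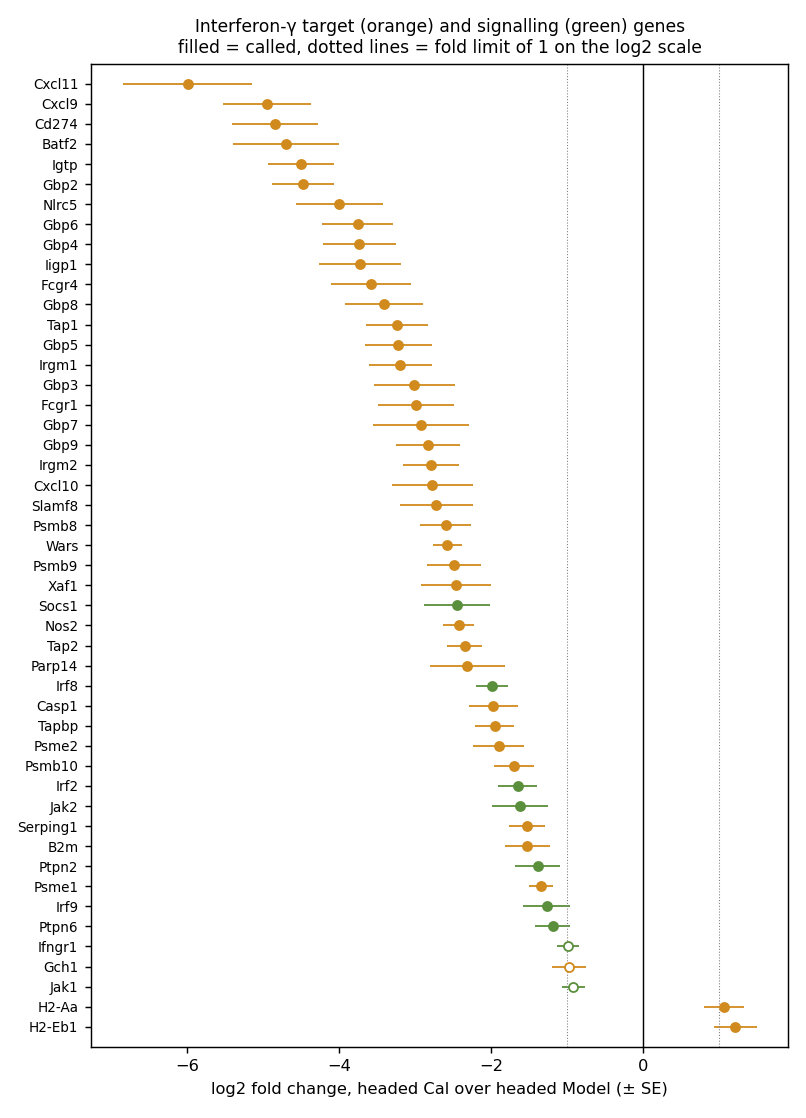
Log2 fold changes of the Cal-headed libraries over those headed Model (n = 3 each, bars are standard errors from limma) for 39 interferon-γ target genes in orange and 9 signalling genes in green, with filled points for called genes and dotted lines at -1 and 1. H2-Aa and H2-Eb1 lie right of 0 and the other 46 genes left of it, from -5.99 for Cxcl11 to -0.91 for Jak1.

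Levels per kilobase place Ubd and Ido1 among these targets. Of the 41 genes, in the Model-headed libraries, Ubd was at place 23 from the highest, between Psme2 at 980 ± 89.8 and Gbp6 at 842 ± 436 (SD, n = 3 each), and neither neighbour differed from its 898 by more than that spread. Ido1 was at place 30, between Nlrc5 at 363 ± 119 and Fcgr4 at 338 ± 49.3, which are likewise within the spread. In the Cal-headed libraries, Ido1 was at place 39 and Ubd at place 40 of the 41, above Gbp8 at 1.11 ± 0.768 and below Slamf8 at 4.71 ± 2.71. The low level headed Cal is part of what chose both members. Of the neighbours named, Gbp6 had 62.8 ± 34.8, Psme2 284 ± 127, Nlrc5 27.2 ± 18.2 and Fcgr4 34.5 ± 28.9 per kilobase in the Cal-headed libraries (SD, n = 3 each). Cxcl11, at place 28 in the Model-headed libraries with 435 ± 251, came closer with 10.1 ± 12.0 (SD, n = 3 each), and its lowest Cal-headed library, at 1.70, lay within the range of both members.

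**Figure D3:**
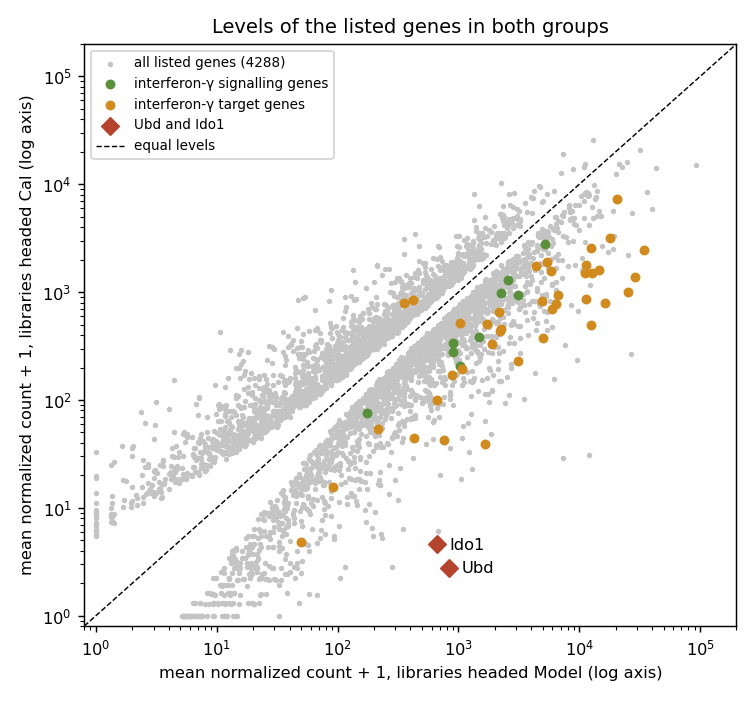
Mean normalized count + 1 of each of the 4288 listed genes in the Model-headed libraries (horizontal, log axis) and headed Cal (vertical, log axis), with the dashed line at equal levels. Only genes passing the authors' test are listed, which leaves the gap along the line, and Ubd and Ido1 (diamonds) lie under the interferon-γ targets of similar level in the Model-headed libraries.

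The machinery that uses FAT10 is mostly not listed. Of 12 genes of FAT10 conjugation, decay and its ubiquitin counterparts, 4 are listed, of which 1 was called lower in the Cal-headed libraries and 0 higher. Over all listed genes 31.6% were called lower and 28.4% higher. Nub1, which encodes an adaptor that speeds the degradation of FAT10 conjugates, had 735, 1154 and 825 in the Model-headed libraries and 396, 374 and 419 in those headed Cal, a log2 fold change of -1.16 (adjusted p = 0.00140 from limma). It was not called without the library headed Model 2 (-0.98). Psmd4, a proteasome receptor gene, had -0.56, and the polyubiquitin gene Ubb had -0.57, both below the fold limit. The E1 and E2 genes of FAT10, Uba6 and Ube2z, are not listed in this table.

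None of the 18 other genes taken for the kynurenine and tryptophan pathways, Ido2, Tdo2, Kmo and Kynu among them, is listed in either table, so the steps beside and after Ido1 could not be compared. Genes of tryptophan uptake, of the response to amino acid shortage and of the kynurenine-sensing receptor Ahr are listed more often, 15 of 20. Of these, 9 were called lower in the Cal-headed libraries and 3 higher, beside 31.6% and 28.4% over all listed genes. Their median log2 fold change was -1.41, beside -0.52 over all listed genes.

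Slc7a5, which encodes the light chain of the transporter that carries tryptophan, had a normalized count of 424, 830.5 and 517 in the Model-headed libraries and 76.6, 116 and 114 in those headed Cal. Its log2 fold change was -2.49 (SE 0.29, adjusted p = 0.000435 from limma), and its heavy chain gene Slc3a2 had -1.41 (adjusted p = 0.000554 from limma). Trib3 and Asns, both known targets of the amino acid response factor Atf4, had the lowest values of the list. Trib3 went from 212, 317 and 135 to 22.1, 9.39 and 14.5 (log2 fold change -3.76, adjusted p = 0.000346 from limma). Asns, the asparagine synthetase gene, went from 631, 959 and 294 to 46.1, 74.2 and 73.4 (log2 fold change -3.14, adjusted p = 0.000741 from limma). Atf4 itself had -0.87 and Chac1 -0.97, both under the fold limit. Atf4 passed it without the library headed Model 1 (-1.01), as did Chac1 (-1.14), which also did so without Cal 2 (-1.24).

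The genes of the Ahr receptor moved in both directions. Ahr was called lower in the Cal-headed libraries (103 ± 25.8 against 41.5 ± 11.1, SD, n = 3 each, log2 fold change -1.29, adjusted p = 0.00465 from limma). Its known targets Cyp1b1 (-2.08, adjusted p = 0.00125 from limma) and Tiparp were called lower too, Tiparp with 2029 ± 584 in the Model-headed libraries and 515 ± 184 in the Cal-headed ones (SD, n = 3 each, adjusted p = 0.00121 from limma). Cyp1a1, the classical target of the receptor, had 55.3, 23.5 and 16.2 in the Cal-headed libraries and 0 reads in all 3 libraries headed Model, and against a floor of 3 counts per library it was at least 9.72-fold higher in the Cal-headed libraries. The repressor gene Ahrr had 42.4, 56.3 and 32.5 against 16.2, 8.54 and 6.71, a log2 fold change of 2.01 (adjusted p = 0.00274 from limma). Bin1, known as a suppressor of Ido1 expression, was the other gene called higher (183 ± 19.3 against 64.9 ± 13.7, SD, n = 3 each, log2 fold change 1.49, adjusted p = 0.000957 from limma). For these genes no library of one group overlapped the other, which is not particular to them among genes listed for differing between these groups.

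TNF and NF-κB, the co-inducers of Ubd, were measured in both tables, which share the Cal-headed libraries and were normalized separately. Of 15 genes, 7 are listed in the Cal and Model table, of which 3 were called higher in the Cal-headed libraries and 3 lower. Calls over all listed genes were also split nearly evenly, with 28.4% higher and 31.6% lower. Tnf had 757, 416 and 424 in the Cal-headed libraries and 163, 132 and 87.2 in those headed Model, a log2 fold change of 2.04 (adjusted p = 0.00115 from limma), higher in the libraries where Ubd was near 0. By the mean columns' headings these same libraries would be the model group. Its receptor genes Tnfrsf1a (-1.79, adjusted p = 0.000210 from limma) and Tnfrsf1b (-1.19, adjusted p = 0.00174 from limma) were called lower there, as was Osmr, the receptor gene of oncostatin M (-2.61, adjusted p = 0.000576 from limma). Rel, an NF-κB subunit gene, was called higher (1.18, adjusted p = 0.00290 from limma), as was the cytokine gene Il1b (2.02), while Lif (-0.79) was below the fold limit.

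In the Model and Con table, 12 of the 15 are listed, and 11 were called higher in the Cal-headed libraries than in those headed Con and 0 lower, beside 18.0% called higher, 10.9% lower and 29.0% in all over the 2458 listed genes. Nfkbia, the NF-κB inhibitor and target gene, had 5762, 5593 and 5706 in the Cal-headed libraries and 807, 1186 and 848 in those headed Con, a log2 fold change of 2.61 (SE 0.14, adjusted p = 2.75e-06 from limma). The subunit gene Rela had 2635 ± 369 against 655 ± 30.8 (SD, n = 3 each, adjusted p = 3.53e-06 from limma). The groups of these genes do not overlap, but here too the genes had been listed for differing between these groups. Cell type markers moved in the same table. Of 9 neutrophil markers 2 are listed, S100a8 and S100a9, both called higher in the Cal-headed libraries (2.61 and 2.59). Ccl5 was the 1 of 20 T and NK cell markers listed, called higher (3.44). Of 15 monocyte and macrophage markers 3 are listed, Cd14 called higher (3.44), Ccr2 called lower (-2.11) and Mrc1 not called (-0.49). Of 13 dendritic cell markers 4 are listed, 2 called higher and 1, Clec9a, called lower (-1.63). Of 10 endothelial markers 7 are listed, 2 called lower and 0 higher, with sums of 12974 to 15300.5 in the Cal-headed libraries and 21169 to 24457 in those headed Con. Of 8 fibroblast markers 4 are listed, all 4 lower there, with 1, Pdgfra, called (-1.21). Ighm, the 1 of 6 B cell markers listed, was not called (-0.78), nor were the 2 of 10 cardiomyocyte markers listed. The part of these cells in the list's values was not tested.

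Interferon-γ genes are fewer in that table, with 6 of the 15 signalling genes and 7 of the 44 targets listed. Of these, 4 and 6 were called higher in the Cal-headed libraries than in those headed Con and 0 and 0 lower. The shares over the 2458 genes listed there were 18.0% called higher, 10.9% lower and 29.0% in all. Irf1, which binds ISRE elements, had 6408, 4776 and 7748 in the Cal-headed libraries and 372, 635 and 402 in those headed Con, a log2 fold change of 3.76 (SE 0.23, adjusted p = 5.58e-06 from limma). Cxcl10, whose promoter is shown above, had 1770, 1836 and 7139 against 10.3, 34.4 and 5.06, a log2 fold change of 7.73 (adjusted p = 5.21e-05 from limma). Ubd and Ido1 are not listed there, and neither had more than 6 reads in any of the same libraries headed Cal.

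**Figure D4:**
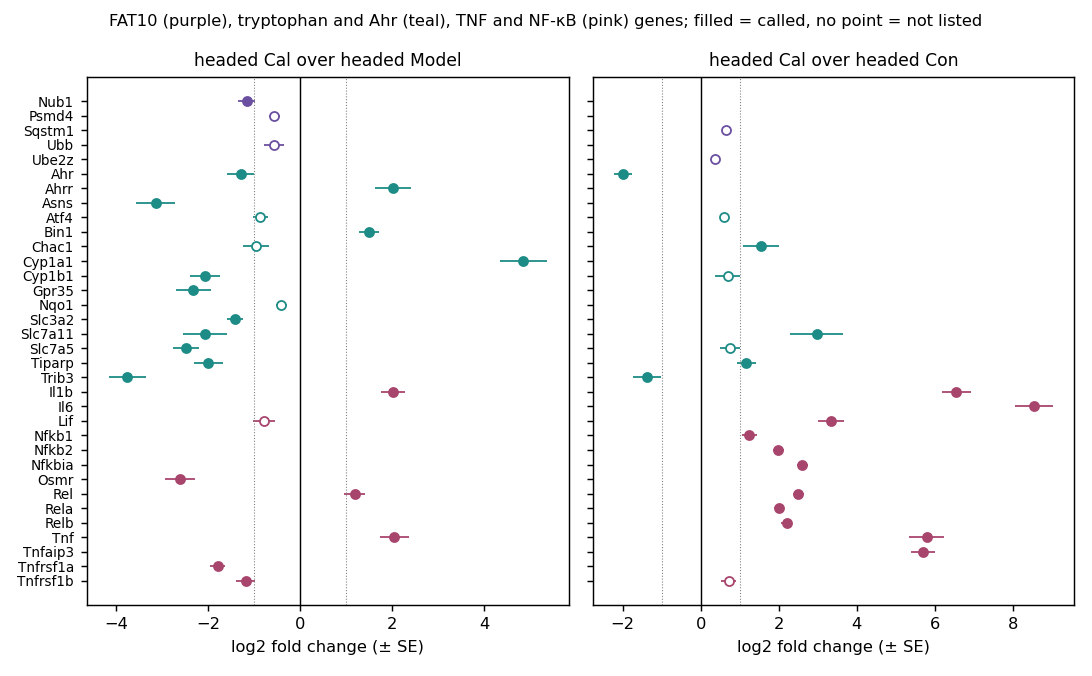
Log2 fold changes with standard errors from limma for genes of FAT10 (purple), of tryptophan supply, the amino acid response and Ahr (teal) and of TNF and NF-κB (pink), for the Cal-headed libraries over those headed Model (left) and over those headed Con (right), n = 3 each. Filled points are called genes and a gene without a point is not listed in that table. On the left Cyp1a1 lies farthest right at 4.85, a fitted value against 0 reads in every library headed Model, and Trib3 farthest left at -3.76.

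The listed genes most like Ubd and Ido1 were sought by the root mean square difference between log2(normalized count + 1) values, each centred on the gene's mean over the 6 libraries. This measure follows mainly the difference between the groups that chose both genes, so its list is a description, and several of its genes stand next to them in the order of differences. The gene most like Ubd was Ido1, at 0.80, and Ubd was the third most like Ido1, although within the Model-headed libraries Ubd was highest in Model 1 and Ido1 in Model 2. Gm4841, Gm10851, Lcn2, Sh2d5, Olfr56, Gm37975 and Gbp10 are among the 10 most like each of them, at 0.80 to 1.47 from Ubd and 0.74 to 1.07 from Ido1. Saa3 and Gm12250 complete the list of Ubd, and AA467197 and Lipg that of Ido1. In the Model-headed libraries their means ran from 232 for AA467197 to 26704 for Lcn2, which encodes the iron-siderophore binding protein lipocalin 2. Gbp10, a guanylate binding protein gene, had 1235, 1784 and 638 against 26.8, 11.3 and 57.2. Gm10851 and Gm37975 both overlap Pfkfb3, and Olfr56 spans Ifi47, Tgtp1 and Tgtp2 among others, and Sh2d5 overlaps Kif17, so their reads could come from those genes, as counting by strand is not given in the sources used here.

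**Figure D5:**
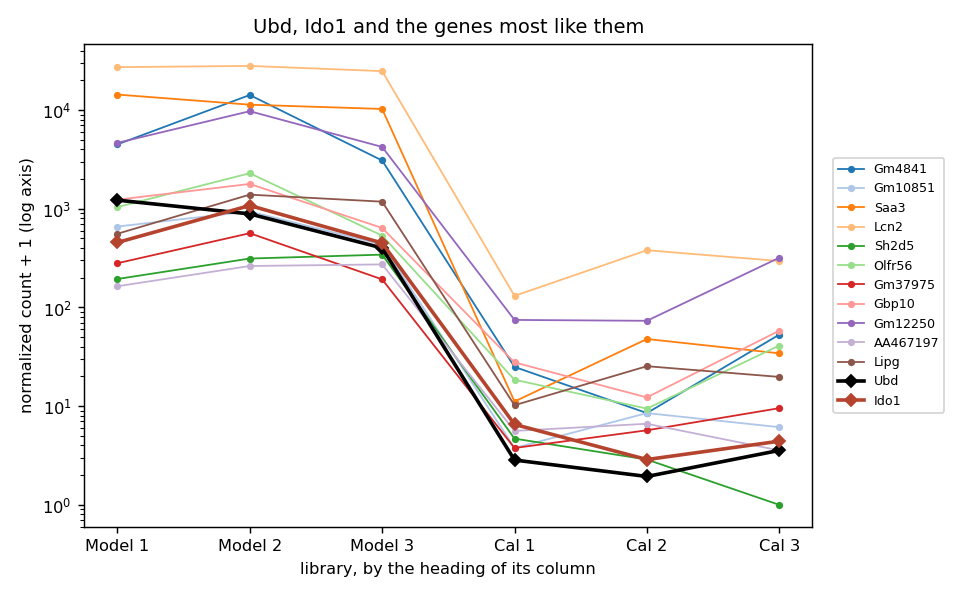
Normalized count + 1 on a log axis in each of the 6 libraries for Ubd (black) and Ido1 (red) and for the 11 other genes most like them, with lines joining the values of one gene. Replicates have no order. Ubd is the lowest of these genes in Cal 1 and Cal 2 (1.84 and 0.939), while Sh2d5, with 0 reads, is the lowest in Cal 3.

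On the deposited mouse coordinates, 7 other listed genes lie within 1000000 bases of Ubd, of which 5 were called lower in the Cal-headed libraries and 1 higher, beside 31.6% and 28.4% over all listed genes. H2-M3, a nonclassical MHC class I gene 74125 bases away, had a log2 fold change of -2.29 (adjusted p = 0.00237 from limma), and Trim26 had -1.51 (adjusted p = 0.00319 from limma). The others called lower were near the floor. Vhl-ps1 and Olfr753-ps1 had means of 4.52 and 6.18 in the Model-headed libraries and 0 in those headed Cal, and Olfr99 had 21.0 and 2.40. Zfp57 was the gene called higher, at 2.11 (adjusted p = 0.00194 from limma). Around Ido1, 5 other genes are listed, of which 2 were called lower, near the share over all listed genes, and 0 higher. Adam9, a membrane metalloprotease gene, had -1.24 (adjusted p = 0.00157 from limma), and Adam32 had means of only 10.4 headed Model and 1.76 headed Cal. None of the listed genes overlaps Ubd or Ido1.

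Markers of T and NK cells, known sources of interferon-γ, and of neutrophils were low where Ubd and Ido1 were low. Of 8 called monocyte and macrophage markers, 5 were high there and 3 were low. In bulk tissue fewer cells of a type and less RNA per cell cannot be told apart. Of 20 markers of T and NK cells, 6 are listed and all 6 were called lower in the Cal-headed libraries, beside 31.6% called lower, 28.4% higher and 60.1% in all over the listed genes, with a summed normalized count of 81.2 to 143 there and 2332 to 3169 in those headed Model. Most of that sum was Ccl5, a chemokine gene with 2232, 3055 and 2629 against 72.9, 125 and 129.8. The NK receptor gene Klrk1 had 58 reads in the Model-headed libraries and 1 read in those headed Cal, a ratio of 69.0 with an exact 95% counting interval of 11.9 to 2773. The defining T cell genes Cd3d, Cd3e, Cd3g and Cd8a and the NK cell gene Ncr1 are not listed.

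Of 9 neutrophil markers, 7 are listed and all 7 were called lower, beside 31.6% called lower and 28.4% higher over all listed genes. Their sums were 77.5 to 247 in the Cal-headed libraries and 888 to 1100.0 in those headed Model. Mpo was near the floor, with 0 reads in all 3 libraries headed Cal and 12 reads summed over those headed Model. Against a floor of 3 counts per library it was at least 1.61-fold higher in the Model-headed libraries. Of 13 dendritic cell markers 5 are listed, 3 called lower and 2 higher, with sums of 1910.1 to 2461 and 505 to 996, Ccr7 lower at -3.85 and Cd83 higher at 2.68. Of 15 monocyte and macrophage markers 10 are listed, 3 called lower and 5 higher, with sums of 8757 to 9772 and 3349 to 5066. Those called lower were Ly6c2 (-5.33), Itgam (-1.83) and Ccr2 (-1.56). Those called higher were Csf1r, Lyz2, C1qa, C1qc and Cd163, from 1.26 to 1.66. Of 10 endothelial markers 9 are listed, 1 called lower and 5 higher, with sums of 12356 to 15180.1 and 7865 to 9459, a called share near that over all listed genes. Pax5 was the 1 of 6 B cell markers listed, called lower at -2.53, Nppa the 1 of 10 cardiomyocyte markers, called lower at -1.04, and 4 of 8 fibroblast markers are listed, 2 called higher and 0 lower. The part of these cells in the levels of Ubd and Ido1 was not tested.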

How the data were processed

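Cardiac RNA of 9 Sprague Dawley rats in 3 groups was sequenced by the authors (poly-A selected, Illumina paired-end). According to the paper's Methods, reads were aligned to rat reference sequences, counted per gene and tested with DESeq2, whereas the labels' processing notes name Bowtie 0.12.2 with the mouse builds mm8 and mm9, and the counting tool is not given in the sources used here. The deposited signal in the sample columns is a count per gene divided by one size factor per library, computed by the authors separately for each of 2 tables. Group means and the results of the authors' own comparison (its log2 fold change, p-value and adjusted p-value) are deposited beside it, and no value of that comparison was used. The deposited gene length, in bases, was used for levels per kilobase. No column of another sample was present.

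Whole reads were recovered by dividing each column by its smallest nonzero value (tolerance 0.01 reads). Genes were tested with limma 3.58.1 in R 4.3.3 (linear model, trended prior variance) on log2(normalized count + 1) over all listed genes of a table, adjusted by the Benjamini-Hochberg method. Since the listed genes had been selected by the authors' test on the same libraries, the p-values re-test a selection. Nothing says whether replicates share a preparation, and p-values measure only the spread between these libraries. Ubd, Ido1 and all gene lists were chosen with earlier results of these data known, and each listed gene of a list could be named, with called genes first, as could the 10 genes most like each member and those next to it in the order of differences. Genes near the members on the chromosome were named after their values were seen. Alternatives tried were a pseudocount of 0.1 or 10, dropping genes with a mean under 10, 2 other scalings (quantile and median-ratio), count tests of the recovered reads in edgeR 4.0.16 and in DESeq2 1.42.0, calls without a fold limit, a replicate block, and each library left out in turn. Intervals on reads cover counting error only (scipy 1.17.1, exact). Simulated data with 200 genes changed by 2 on the log2 scale gave 100% recovery with 4 false calls for the Cal and Model table (4091 genes) and 100% with 1 false call for the other (2426 genes). The simulation gave all genes the same dispersion, had no earlier selection and changed fewer genes than the 2575 and 712 called in the tables. Its rates therefore check the code only and do not carry over to these data.

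Rat promoters came from RefSeq on GRCr8. Ubd and 26 of 39 listed targets matched by symbol. Of the listed genes, 2 are not reported here by name and are left out of the figures, though the counts over lists include them.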

Additional observations from a re-analysis of the deposited data

How the results depend on the processing

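The differences of Ubd and Ido1 between the libraries headed Cal and Model kept their sign in every alternative run for them. Both genes were chosen for this difference and their groups lie far apart, so the kept sign is no support. A pseudocount of 10 took the differences to -6.03 and -5.51, as a higher pseudocount by construction shrinks the change of genes near 0 reads. Leaving out each library in turn gave -8.59 to -7.79 for Ubd and -7.41 to -6.70 for Ido1. The calls among the interferon-γ lists were 46 of 49 listed genes in the Cal and Model table (42 to 49 over the alternatives) and 10 in the Model and Con table (10 to 13), and those among the FAT10, kynurenine, tryptophan and TNF lists were 19 (17 to 26) and 16 (14 to 21). edgeR and DESeq2 on the recovered reads gave the same counts. Quantile normalization and median-ratio scaling moved the median log2 fold change over the 4288 listed genes from -0.52 to -0.10 and -0.23, and over the 2458 of the other table from 0.37 to -0.044 and 0.09. Under quantile normalization Ubb turned to 0.22 in the first table and Ube2z to -0.075 in the second, neither of them called in any fit with the fold limit, and B2m (-0.61), Psme1 (-0.81), Serping1 (-0.94), Irf9 (-0.77), Nub1 (-0.87) and Tnfrsf1b (-0.84) were no longer called, nor were Nfkb1 (0.81) and Tiparp (0.90) in the second. Median-ratio scaling lost Irf9 (-0.97), Ptpn6 (-0.89), Nub1 (-0.87) and Tnfrsf1b (-0.89) in the first table and Nfkb1 (0.96) and Tiparp (0.89) in the second. Without the library headed Cal 2, Tiparp (0.91) was not called in the second table, and without Cal 1, Cyp1b1 (1.08) was. Of 110 values for single genes, 91 kept their call throughout.

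Rats with the same replicate number are different animals, and libraries with the same number did not deviate together, with correlations across genes of -0.237 to 0.160 for Model with Cal and -0.228 to -0.0972 for Cal with Con. With the replicate block the counts were 46, 10, 19 and 16. Depth limits the members in the libraries headed Cal, where 1 to 6 reads per library cannot order the libraries or the 2 genes.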
